A study of Mus musculus with 12 samples.

Results

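DEAD-box and DEAH-box proteins are RNA helicases, enzymes that use ATP to unwind or remodel RNA and RNA-protein complexes, and are named after a short amino acid motif of their core. They act in splicing, ribosome assembly, mRNA export, translation, RNA decay and the sensing of viral RNA. DHX36, a DEAH-box protein, unwinds G-quadruplexes, 4-stranded structures formed by guanine-rich RNA or DNA. Its nearest relatives by sequence, such as DHX9, belong to the same subgroup of DEAH-box enzymes. The genes described here were those whose symbol in the count table began with Ddx or Dhx followed by a number, without Ddx3x, Ddx3y, Ddx4 and Ddx11. That gave 50 of 32285 mouse genes, Dhx36 included, and the question put to them was whether other helicase genes rose where DHX36 or FANCJ was lost.

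The levels come from bulk 3′-end RNA sequencing of untreated mouse embryonic stem cells of IB10, a 129/Ola line. The 4 genotypes were wild type, DHX36 knockout (KO), FANCJ KO and DHX36/FANCJ double KO, with 3 libraries each and 12 in all. FANCJ is a DNA helicase of the Fanconi anaemia pathway that also resolves G-quadruplexes, and its mouse gene is Brip1. All cells grew on gelatin in serum with leukaemia inhibitory factor and medium conditioned by a rat liver line. The sources used here do not say whether each KO was 1 clone, nor whether its 3 libraries were grown as separate cultures; p-values therefore reflect only how far these libraries spread, which may be technical.

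Library totals lay between 4284785 and 14721931 counts, and the wild-type libraries, at 5792862 or fewer, were all shallower than those of double KO, at 10915924 or more. All 9 pluripotency markers had counts in every genotype, and their summed level was 4450 to 4530 CPM, a count scaled to a common library total, in wild type and 4960 to 5200 in DHX36 KO. It was 3950 to 4180 in FANCJ KO and 6010 to 6070 in double KO. Summed trophoblast markers (Cdx2, Eomes, Elf5, Tfap2c, Krt7 and Krt8) were at 615 to 796 CPM in wild type and 347 to 393 in DHX36 KO. They were at 742 to 797 CPM in FANCJ KO and 247 to 256 in double KO. Of these 6 genes, Elf5 was at 0 in wild type. The sums were not split by gene, so they do not measure the content of a cell type. For the 8 fibroblast markers the sums were 87.9 to 94.4, 74.0 to 86.4, 81.6 to 89.6 and 33.1 to 38.5 CPM in the same order, and for the 4 neuroectoderm markers 37.4 to 48.9, 24.1 to 25.9, 35.3 to 42.2 and 19.1 to 23.7. The 7 primitive endoderm markers summed to 75.7 to 93.3 CPM in wild type, 65.5 to 70.5 in DHX36 KO, 159 to 169 in FANCJ KO and 77.3 to 81.0 in double KO. Pdgfra is in both this list and the fibroblast list. The mitochondrial share of counts was 10.0% to 10.6% in wild type, 11% to 12.3% in DHX36 KO, 11.2% to 11.5% in FANCJ KO and 11.9% to 13.2% in double KO. The part of these differences in the results below was not tested.

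Of the 50 genes, 47 had enough counts to be tested. The others were Dhx58, which encodes the RNA sensor LGP2 (3 to 10 counts per library), Ddx60, an antiviral helicase gene (0 to 4 counts), and Dhx58os, an antisense RNA of the Dhx58 locus that matches the name pattern and is no helicase (0 counts in all 12 libraries). The 47 had a median level of 44.3 CPM against 15.8 for all 12765 genes tested, so they were counted with more precision than most. Changes are log2 fold changes from edgeR's quasi-likelihood test, with standard errors (SE) and p-values adjusted over all genes tested. A gene is said to have risen or fallen where its adjusted p was under 0.05.

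The share of helicase genes that rose in DHX36 KO against wild type was near that of all genes. Of 47 members 7 rose (14.9%), against 12.8% of all genes, and 3 fell, Dhx36 itself included (6.38%, against 11.6%). The median change was -0.03 over the members and 0.01 over all genes. With 1 library of this comparison left out, 5 or 6 members rose, where 9.52% to 10.6% of all genes rose. In FANCJ KO against wild type none of the 47 passed the threshold, where 1.45% of all genes rose and 0.619% fell, and DESeq2 also gave 0. That does not show that their levels were unchanged. At an unadjusted p under 0.05, 1 member passed upward and 5 downward. The share of all genes at that unadjusted threshold was not counted, so these counts have no background to be read against. In double KO 9 rose (19.1%, against 16.6%) and 7 fell (14.9%, against 17.3%), with a median of -0.03 against 0.01. Without double KO library 1, 5 rose, where 13.8% of all genes rose. In the other pair that measures DHX36 loss, double against FANCJ KO, 27.7% of members rose, against 18.3%, as described below.

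**Figure D1:**
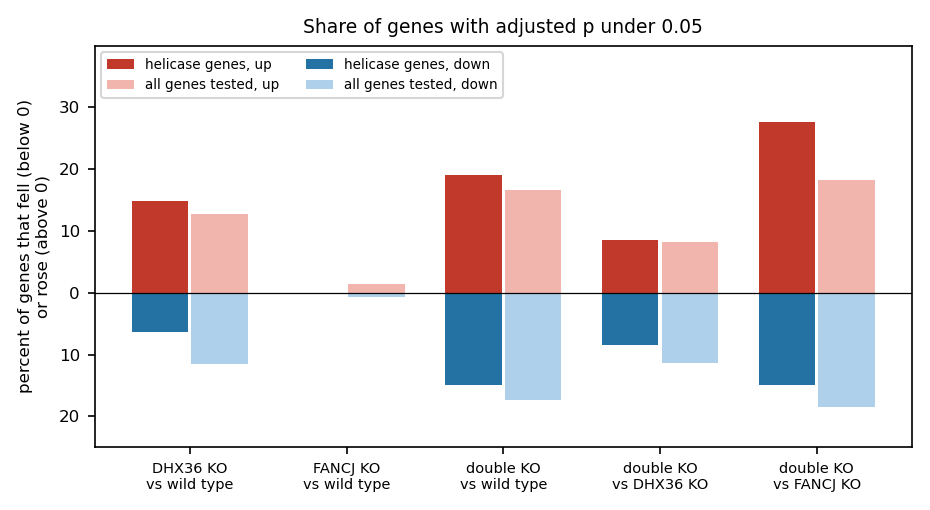
Percent of the 47 helicase genes tested and of all 12765 genes tested that rose (above 0) or fell (below 0) in each comparison of genotypes, by adjusted p under 0.05. In DHX36 KO the bars for rises stand at 14.9% of members and 12.8% of all genes and those for falls at 6.38% and 11.6%, and no helicase gene passed in FANCJ KO.

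Dhx36 was low where it was targeted. Its gene (ENSMUSG00000027770, GRCm38 chromosome 3, 62468013 to 62507004, minus strand) gave 54.7, 57.6 and 50.1 CPM in the wild-type libraries and 10.9, 8.84 and 11.6 in DHX36 KO. In FANCJ KO it gave 57.2, 51.5 and 58.0 CPM, and in double KO 12.2, 15.1 and 14.5. The 6 libraries without DHX36 lay below the other 6 with no overlap, at 5.11-fold (DHX36 KO) and 3.91-fold (double KO) lower levels than wild type. Residual tags stood 0.39 (SE 0.13) higher in the double than in DHX36 KO (adjusted p = 0.0456), a call lost without DHX36 KO library 1 or 2 or double KO library 2 or 3 (adjusted p = 0.0832 to 0.175) and under 4 other settings. For Brip1, the other targeted gene, the wild-type libraries held 31, 38 and 30 counts, against 58, 47 and 75 in DHX36 KO, 1, 2 and 3 in FANCJ KO and 11, 4 and 2 in double KO. These counts are not scaled to library totals, which were 4284785 to 5792862 in wild type and 6223087 to 10919405 in DHX36 KO. The higher counts in DHX36 KO therefore do not show a rise of Brip1. The sources used here do not name the deleted part of either gene, and the tags left do not show whether protein remained.

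Among the 4 relatives of Dhx36, Dhx9 was the one that passed when DHX36 alone was lost. DHX9, also called RNA helicase A, unwinds double-stranded RNA, RNA-DNA hybrids and G-quadruplexes. Dhx9 (ENSMUSG00000042699, chromosome 1, 153455758 to 153487660, minus strand) was at 268, 262 and 219 CPM in wild type and at 395, 521 and 552 in DHX36 KO. It was at 247, 263 and 259 CPM in FANCJ KO and at 563, 577 and 380 in double KO. All 6 libraries without DHX36 lay above all 6 with it, although library 1 of DHX36 KO and library 3 of double KO were well below their companions. The change was 0.97 (SE 0.13, 1.96-fold, adjusted p = 1.55e-05) in DHX36 KO and 1.02 (SE 0.13, 2.03-fold) in double KO against wild type. Against FANCJ KO, double KO was higher by 0.98 (SE 0.13, 1.98-fold). FANCJ loss alone gave 0.04 (SE 0.13, adjusted p = 0.94).

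Dhx29, whose product helps ribosomes scan structured 5′ leaders, was at 190, 169 and 189 CPM in wild type, 178, 170 and 149 in DHX36 KO, 156, 146 and 143 in FANCJ KO and 185, 158 and 204 in double KO. FANCJ KO libraries were below all of wild type and of double KO but overlapped DHX36 KO, and the change against wild type was -0.30 (SE 0.10) at an adjusted p of 0.131. Double KO exceeded FANCJ KO by 0.30 (SE 0.10, adjusted p = 0.0184); without any of 4 of their libraries (FANCJ KO 2 or 3, double KO 1 or 3) that adjusted p was 0.0521 to 0.118. Dhx57, a less studied relative, averaged 21.5 ± 3.88 CPM (SD, n = 3) in wild type, 17.0 ± 1.64 in DHX36 KO, 20.8 ± 4.35 in FANCJ KO and 12.7 ± 3.62 in double KO. It fell by 0.77 (SE 0.19, adjusted p = 0.003) in double KO against wild type and by 0.70 (SE 0.18, adjusted p = 0.00417) against FANCJ KO. In DHX36 KO alone its value was -0.33 (SE 0.19, adjusted p = 0.221). Dhx30, which supports mitochondrial ribosome assembly, stayed between 26.2 and 38.4 CPM in all 12 libraries and passed in no comparison.

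**Figure D2:**
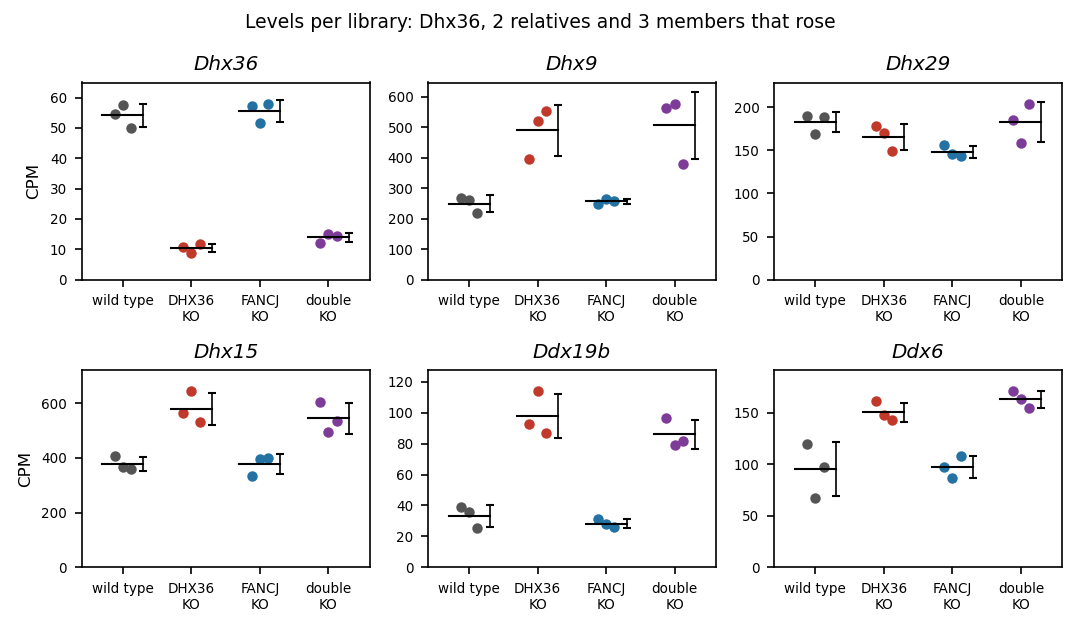
Level in CPM (linear axis from 0) of Dhx36, its relatives Dhx9 and Dhx29, and 3 members that rose with DHX36 loss, by genotype; points are libraries, bars the mean and SD of 3. Dhx9 lies between 380 and 577 CPM in the libraries without DHX36 and between 219 and 268 in those with it.

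The loss of DHX36 was measured in 2 pairs of genotypes that share no library, DHX36 KO against wild type and the double against FANCJ KO, both estimated in 1 model with 1 estimate of spread. In the second pair 13 members rose (27.7%, against 18.3% of all genes) and 7 fell (14.9%, against 18.5%), with a median of 0.04 against 0.02. Without FANCJ KO library 2 the rises numbered 7 of 47, where 14.5% of all genes rose. Without double KO library 1 or 3 they numbered 8, where 15.1% and 15.7% of all genes rose. All 7 members that rose in the first pair rose in the second, which is 53.8% of those that rose there. They were Dhx9, Dhx15, Dhx32, Ddx6, Ddx10, Ddx19b and Ddx31. The calls of Ddx10 and Ddx31 in the first pair, and of Ddx31 in the second, were lost in some settings, as given below. Dhx36 and Ddx46 fell in both, 66.7% of the falls in the first pair and 28.6% of those in the second. The fall of Dhx36, the targeted gene, was set by the design but is counted in these shares, so Ddx46 is the only untargeted member that fell in both. Those shares are of members that passed. Of all genes, 956 rose in both pairs, out of 1628 that rose in the first and 2332 in the second. Falls in both numbered 935, out of 1485 in the first and 2365 in the second. As shares of all 12765 genes tested, 7.49% rose in both and 7.32% fell in both. The direction was the same for 32 of the 47 members (68.1%), against 70.2% of all genes.

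**Figure D3:**
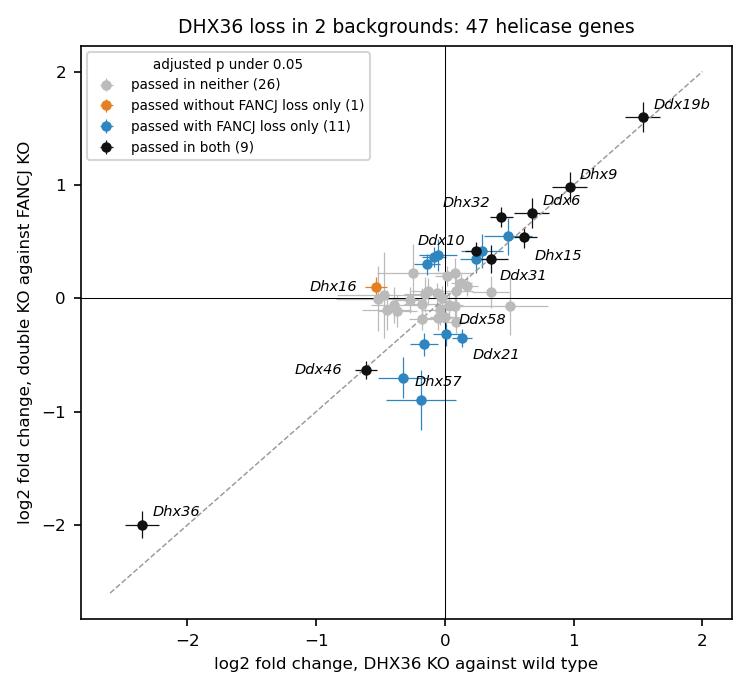
Log2 fold change of each of the 47 helicase genes with SE, in DHX36 KO against wild type (horizontal) and in the double against FANCJ KO (vertical); the dashed line marks equal change. The 9 members that passed in both are in black, 11 passed in the second pair only, 1 in the first only and 26 in neither. Dhx36, the targeted gene, is 1 of the 9.

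Ddx19b had the largest rise of any member. Its product is a DEAD-box protein of the nuclear pore that helps strip export factors from mRNA as it reaches the cytoplasm. Ddx19b (ENSMUSG00000033658, chromosome 8, 111003188 to 111031751, minus strand) was at 39.2, 35.7 and 25.5 CPM in wild type, 92.9, 114 and 87.0 in DHX36 KO, 31.2, 27.7 and 26.0 in FANCJ KO and 96.4, 79.4 and 82.0 in double KO. Every library without DHX36 had a higher level than every library with it, the lowest being 79.4 and the highest 39.2 CPM. It rose by 1.54 (SE 0.14, 2.90-fold, adjusted p = 4.59e-08) in DHX36 KO, 1.36 (SE 0.14) in double KO and 1.60 (SE 0.13, 3.02-fold) between double and FANCJ KO. Its close paralogue and neighbour Ddx19a (chromosome 8, 110974996 to 110997800, minus strand) did not pass in any comparison, with 86.2 ± 15 CPM in wild type and 85.5 ± 4.48 in DHX36 KO, a change of -0.00 (SE 0.11). In double KO Ddx19a was at 70.8 ± 2.56 CPM. That was a change of -0.28 (SE 0.11, adjusted p = 0.0534) against wild type and -0.27 (SE 0.11, adjusted p = 0.0716) against DHX36 KO. The sources used here do not say how reads matching both copies were assigned.

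Among the 14 members with roles in splicing and snRNP function, 1 rose and 2 fell in DHX36 KO, where 12.8% of all genes rose and 11.6% fell. Dhx15 (chromosome 5, 52150203 to 52190514, minus strand) encodes the helicase that takes spent spliceosomes apart. It was at 408, 368 and 358 CPM in wild type, 563, 644 and 532 in DHX36 KO, 334, 396 and 398 in FANCJ KO and 606, 495 and 534 in double KO. The groups with and without DHX36 did not overlap, and the rises were 0.62 (SE 0.10, adjusted p = 6.8e-05) against wild type and 0.54 (SE 0.10) between double and FANCJ KO. Ddx46 (chromosome 13, 55635027 to 55681256, plus strand), which encodes the helicase that helps U2 snRNP engage the branch site, moved the other way. Its levels were 94.5, 87.9 and 87.8 CPM in wild type, 58.3, 59.5 and 58.7 in DHX36 KO, 94.2, 101 and 91.6 in FANCJ KO and 60.1, 65.3 and 59.5 in double KO. The 6 libraries without DHX36 lay between 58.3 and 65.3 CPM and below all others, with falls of 0.61 (SE 0.09, adjusted p = 1.71e-05) and, between double and FANCJ KO, 0.63 (SE 0.08).

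Dhx16 fell in DHX36 KO but was not low in double KO. It (chromosome 17, 35879819 to 35892670, plus strand) encodes the helicase that activates the assembled spliceosome, and was at 95.4, 98.1 and 101 CPM in wild type and 71.0, 68.5 and 64.2 in DHX36 KO, a fall of 0.53 (SE 0.09, adjusted p = 9.95e-05). In FANCJ KO it was at 113, 103 and 98.2 CPM and in double KO at 118, 111 and 110. The low level of DHX36 KO was thus absent from double KO, which exceeded it by 0.73 (SE 0.08, adjusted p = 1.8e-06). The interaction, meaning the change on FANCJ loss in cells lacking DHX36 minus the one in cells that have it, was 0.63 (SE 0.12, adjusted p = 0.00141).

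Ddx39, which encodes an mRNA export helicase, fell by 0.47 (SE 0.11, adjusted p = 0.00159) in double KO against wild type, from 281 ± 24.0 to 203 ± 29.0 CPM, and by 0.41 (SE 0.11) against FANCJ KO. In DHX36 KO it was at 251 ± 34.4 CPM (-0.16, SE 0.11). Its 3′ end overlaps Adgre5 on the opposite strand, which rose by 1.31 (SE 0.15) in double KO; the sources used here do not say whether the counting used strand. The fall of 0.31 (SE 0.10, adjusted p = 0.0429) in the double against DHX36 KO ended without DHX36 KO library 3 (adjusted p = 0.262) or double KO library 1 (0.165) or 2 (0.193). The remaining splicing members, Dhx8, Dhx35, Dhx38, Ddx5, Ddx17, Ddx20, Ddx23, Ddx39b, Ddx41 and Ddx42, passed in no comparison. Ddx5 and its paralogue Ddx17, transcriptional and splicing cofactors, were at 607 ± 56.5 and 167 ± 3.53 CPM in wild type, and 683 ± 30.4 and 182 ± 1.74 in DHX36 KO.

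**Figure D4:**
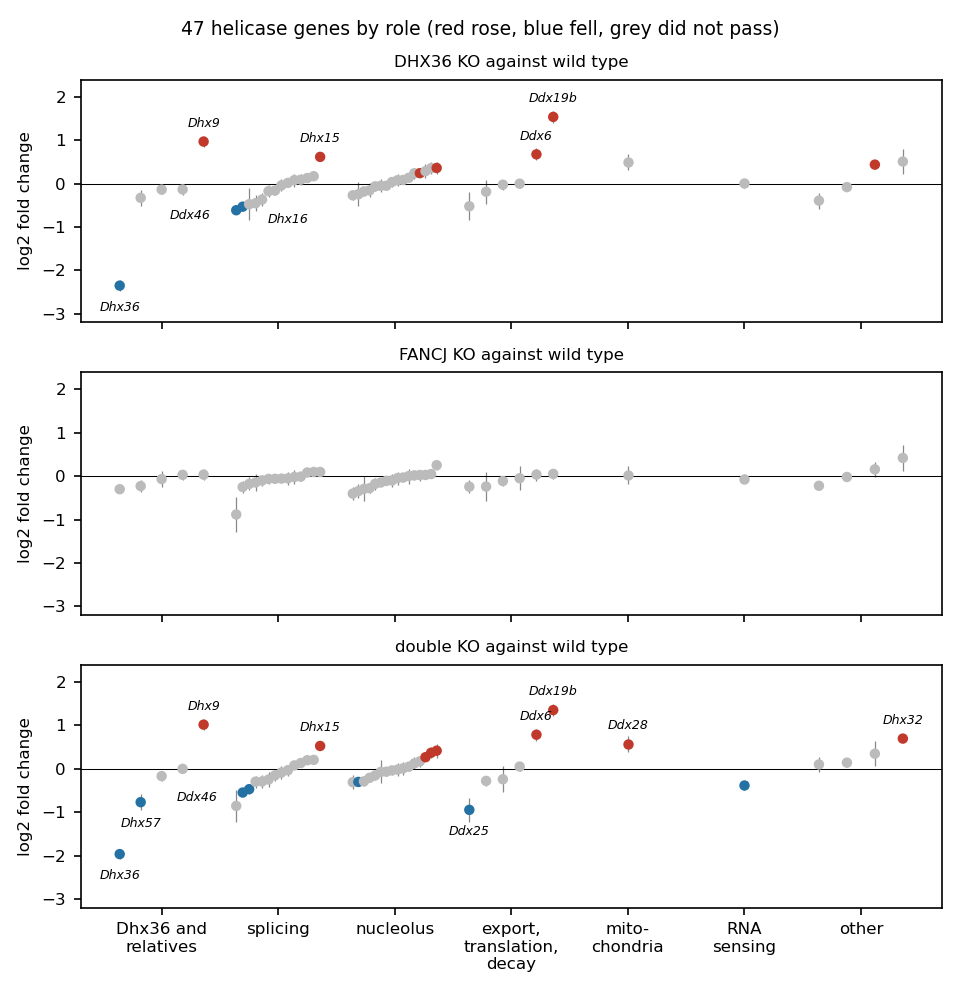
Log2 fold change against wild type with SE for the 47 helicase genes, grouped by role, in the DHX36, FANCJ and double KO; red points rose, blue fell and grey did not pass. Most points lie within 0.5 of 0, and Dhx9, Dhx15, Ddx6 and Ddx19b stand above their groups in both genotypes without DHX36.

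The 16 nucleolar members, which serve ribosome assembly, had changes from -0.27 to 0.36 in DHX36 KO, with 2 up and 0 down (12.8% and 11.6% of all genes). Between double and FANCJ KO 5 of the 16 rose and 1 fell (18.3% and 18.5% of all genes). Those that rose in DHX36 KO were Ddx10 (0.24, SE 0.08) and Ddx31 (0.36, SE 0.13), both close to the threshold (adjusted p = 0.0413 and 0.049). Ddx10 was at 108, 108 and 109 CPM in wild type and 132, 117 and 135 in DHX36 KO; leaving out any wild-type library, or library 1 or 3 of DHX36 KO, gave an adjusted p of 0.0874 to 0.147. Ddx31 ran from 16.8 to 21.0 CPM in wild type and from 22.3 to 26.4 in DHX36 KO, and lost its call when library 1 or 3 of wild type, or 1 or 2 of DHX36 KO, was left out (adjusted p = 0.0944 to 0.200). Both calls were also lost with no expression filter, a replicate block, the compared genotypes only or counts thinned to equal depth (Ddx10 0.0552 to 0.0858, Ddx31 0.0596 to 0.148). That of Ddx31 was lost with RLE (0.0513) and DESeq2 (0.0823) as well. Between double and FANCJ KO the rises were 0.41 (SE 0.08, adjusted p = 0.000447) for Ddx10 and 0.35 (SE 0.13, adjusted p = 0.0328) for Ddx31, the latter lost without FANCJ KO library 2 or 3 or double KO library 2 or 3 (adjusted p = 0.0518 to 0.119). The call of Ddx31 there was also lost with DESeq2 (0.0596), no expression filter (0.0637) or counts thinned to equal depth (0.154). In double KO against wild type Ddx10 rose by 0.27 (SE 0.08, adjusted p = 0.0165), a call lost without double KO library 1 (0.0721) or 2 (0.0546).

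Ddx21, whose product promotes rRNA transcription and processing, behaved differently. It was at 659, 696 and 635 CPM in wild type, 717, 686 and 779 in DHX36 KO, 675, 666 and 721 in FANCJ KO and 531, 559 and 525 in double KO. Double KO was below every other library, by 0.30 (SE 0.08, adjusted p = 0.00416) against wild type, 0.43 (SE 0.08, adjusted p = 0.000286) against DHX36 KO and 0.35 (SE 0.08, adjusted p = 0.00101) against FANCJ KO on the log2 scale. Its interaction was -0.48 (SE 0.11, adjusted p = 0.00557).

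Ddx24 and Ddx55, of the large ribosomal subunit pathway, rose in double KO against wild type (0.37, SE 0.12, and 0.42, SE 0.16). Ddx24 lost that call without wild-type library 3 (adjusted p = 0.153) or double KO library 1 (0.0688), and Ddx55 lost it without any one of the 6 libraries (0.0529 to 0.128). Against FANCJ KO they were higher by 0.34 (SE 0.12) and 0.42 (SE 0.15), calls that ended without FANCJ KO library 2 (adjusted p = 0.198 and 0.251). Ddx24 also lost it without FANCJ KO library 1 (0.0597) or double KO library 1 (0.0834) or 3 (0.0665), and Ddx55 without any double KO library (0.0616 to 0.0733). Dhx33 rose in the same comparison (0.38, SE 0.14, adjusted p = 0.0381), from 15.1 ± 2.70 to 19.9 ± 0.776 CPM, while wild type was at 20.3 ± 3.51; without FANCJ KO library 2 or 3 or any double KO library its adjusted p was 0.0516 to 0.175. The other 10 nucleolar members, among them Ddx18, Ddx50, the paralogue of Ddx21, and Dhx37, passed nowhere.

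Of the 6 members that act on mRNA export, translation and decay or on tRNA, Ddx6 rose beside Ddx19b. DDX6 holds mRNAs in a repressed state in P-bodies and links the removal of poly(A) tails to decapping. Ddx6 (chromosome 9, 44604892 to 44640731, plus strand) was at 120, 67.7 and 97.4 CPM in wild type, 161, 148 and 143 in DHX36 KO, 96.9, 86.3 and 108 in FANCJ KO and 171, 163 and 155 in double KO. Wild-type levels were spread widely, but none reached a library without DHX36. The rises were 0.67 (SE 0.13, adjusted p = 0.000822) in DHX36 KO, 0.79 (SE 0.13) in double KO and 0.75 (SE 0.13) between double and FANCJ KO.

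Ddx25, a gene best known from testis, was low throughout, with 18 to 51 counts per library. It had 4.81 ± 0.349 CPM in wild type and 2.47 ± 0.348 in double KO, a fall of 0.95 (SE 0.28, adjusted p = 0.0119), and fell by 0.90 (SE 0.26, adjusted p = 0.0105) between double and FANCJ KO (0.0707 without FANCJ KO library 2). Its fall of 0.76 (SE 0.26, adjusted p = 0.0423) in the double against DHX36 KO was lost without any one of 5 of their 6 libraries (adjusted p = 0.0544 to 0.290). Ddx1, of the tRNA ligase complex, and Dhx34, of nonsense-mediated decay, passed in no comparison, with 147 ± 19.2 and 3.17 ± 0.864 CPM in wild type and 153 ± 15.9 and 2.73 ± 0.403 in double KO.

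Dhx32 (chromosome 7, 133720942 to 133782726, minus strand), a DEAH-box gene of little-known function, rose without DHX36. It was at 132, 150 and 119 CPM in wild type, 177, 185 and 183 in DHX36 KO, 121, 143 and 134 in FANCJ KO and 210, 218 and 225 in double KO. Double KO lay above DHX36 KO, and both above the rest, without overlap. The rises were 0.44 (SE 0.09, adjusted p = 0.00112) in DHX36 KO, 0.70 (SE 0.09) in double KO and 0.72 (SE 0.09) between double and FANCJ KO. That of 0.26 (SE 0.09, adjusted p = 0.0392) from DHX36 to double KO was lost without any one of the 6 libraries (0.0589 to 0.108). Bccip overlaps the 3′ end of Dhx32 on the opposite strand and was at 0.02 (SE 0.10) and 0.04 (SE 0.10) in the first 2 of these comparisons.

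Dhx40, also little studied, was at 53.4 ± 1.13 CPM in wild type, 50.5 ± 2.74 in DHX36 KO, 46.0 ± 2.39 in FANCJ KO and 59.0 ± 2.43 in double KO. It rose by 0.36 (SE 0.09, adjusted p = 0.00299) between FANCJ and double KO. Ddx28, which encodes a mitochondrial ribosome assembly factor, rose from 7.18 ± 1.37 CPM in wild type to 10.6 ± 1.34 in double KO (0.57, SE 0.18, adjusted p = 0.0163), with 10.1 ± 0.550 in DHX36 KO (0.49, SE 0.19, adjusted p = 0.0593). That rise was lost without wild-type library 1 (adjusted p = 0.0815) or 2 (0.0613) or double KO library 1 (0.066). Against FANCJ KO it rose by 0.55 (SE 0.17, adjusted p = 0.0135; 0.0628 and 0.0629 without FANCJ KO library 2 or double KO library 1). Its 3′ end overlaps Dus2 on the opposite strand, which fell by 0.71 (SE 0.20) in double KO against wild type.

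Ddx58, which encodes the viral RNA sensor RIG-I, was at 43.4, 47.9 and 51.1 CPM in wild type, 49.0, 47.2 and 47.2 in DHX36 KO, 49.9, 43.7 and 42.5 in FANCJ KO and 35.0, 40.1 and 34.6 in double KO. Like Ddx21, it was lowest in double KO, which lay below every other library. The falls were 0.38 (SE 0.10, adjusted p = 0.00792) against wild type, 0.39 (SE 0.10, adjusted p = 0.00797) against DHX36 KO and 0.32 (SE 0.10, adjusted p = 0.0184) against FANCJ KO, the last lost without FANCJ KO library 1 (adjusted p = 0.115) or double KO library 1 (0.0716) or 3 (0.0644). Ddx43, a gene of the germ line, was at 8.74 ± 0.592 CPM in wild type, 6.68 ± 0.378 in DHX36 KO and 9.35 ± 1.46 in double KO, higher in the last by 0.49 (SE 0.16, adjusted p = 0.0321) than in DHX36 KO. That call was lost without DHX36 KO library 1 (adjusted p = 0.0847) or 3 (0.108) or double KO library 1 (0.0724) or 2 (0.163). Ddx59, known from cilia and palate development, passed nowhere.

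**Figure D5:**
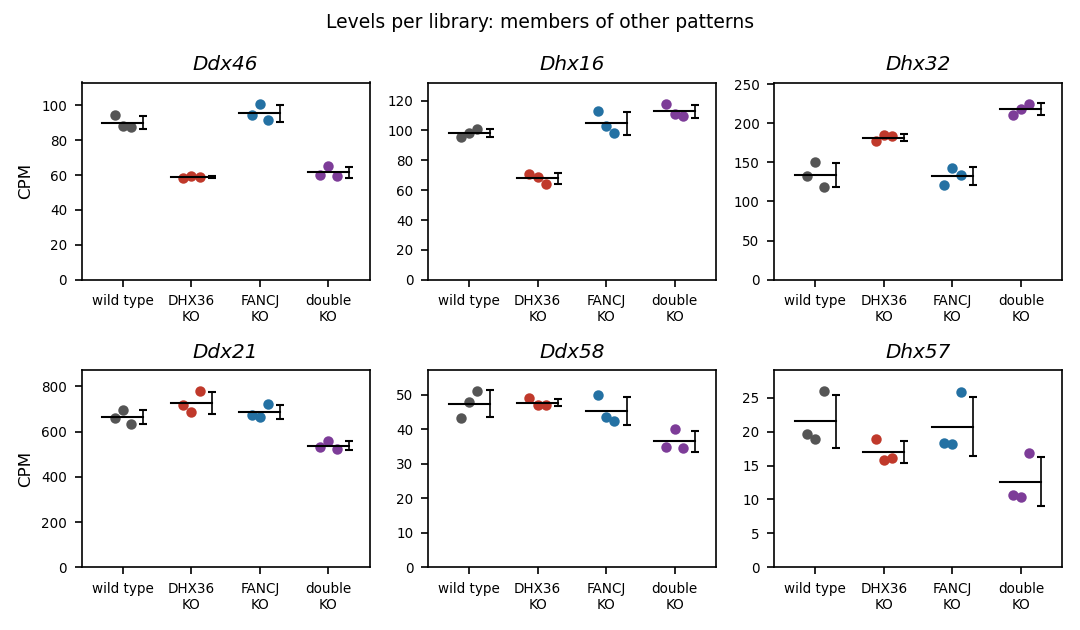
Level in CPM (linear axis from 0) of 6 members with other patterns by genotype; points are libraries, bars the mean and SD of 3. Ddx46 is low in both genotypes without DHX36, Dhx16 only in DHX36 KO, and Ddx21 (525 to 559 CPM) and Ddx58 only in double KO.

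The loss of FANCJ in cells already without DHX36, taken as the double against DHX36 KO, raised 4 members and lowered 4 of 47 (8.51% each, against 8.28% and 11.4% of all genes). The rises were those of Dhx16, Ddx43, Dhx32 and the tags left of the targeted Dhx36, and the falls those of Ddx25, Ddx21, Ddx58 and Ddx39. Only 1 or 2 rises were left without any single one of the 6 libraries, where 5.54% to 6.87% of all genes rose. The falls left numbered 2 without DHX36 KO library 3 or double KO library 1 or 2 (8.98%, 8.81% and 8.28% of all genes). With no member called in FANCJ KO against wild type, none could pass in both FANCJ comparisons, where 0.376% of all genes rose and 0.188% fell in both. The direction was the same in both for 32 of the 47 members (68.1%), against 53.2% of all genes. The difference between the FANCJ effects passed for Dhx16, Dhx29, Dhx40 and Ddx21, with 3 interactions above 0 (6.38%, against 2.73%) and 1 below (2.13%, against 6.06%). Those of Dhx29 (0.44, SE 0.14, adjusted p = 0.0488) and Dhx40 (0.445, SE 0.13, adjusted p = 0.0338) lay near the threshold. Of the 3 above 0, 1 was left without wild-type library 1, DHX36 KO library 3, FANCJ KO library 1 or 2, or double KO library 3. In those runs 2% to 2.31% of all genes passed above 0.

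The summed level of the 49 members other than Dhx36 was 4825, 4795 and 4906 CPM in wild type and 5274, 5550 and 5529 in DHX36 KO. It was 4671, 4784 and 4803 CPM in FANCJ KO and 5419, 5186 and 5182 in double KO, so the libraries without DHX36 were higher with no overlap. Without the 7 members that rose in both pairs, a set picked by its change so that its removal had to narrow the difference, the sum was 3733 to 3958 CPM in wild type, 3728 to 3874 in DHX36 KO, 3722 to 3767 in FANCJ KO and 3498 to 3662 in double KO.

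Promoter sequences of Dhx36 and of some members that rose or fell on its loss are shown. DHX36 and FANCJ act on G-quadruplexes, but a link between promoter motifs and the changes was not tested. RefSeq windows (GRCm38.p6) were found for 44 of the 50 members, and not for Dhx38, Ddx23, Ddx39, Ddx6, Dhx58 and Dhx58os. The 250 bases before each annotated start were searched on both strands for 4 runs of GGG or longer with loops of 1 to 7 bases of any kind; on the template strand the runs read as CCC. Of the 44 members 4 had a match (9.09%), Ddx5, Ddx31, Ddx58 and Dhx32, against 18.5% of 27025 genes. Among the 7 members that rose in both pairs, 6 had a window and 2 of these a match. The last 100 bases before the start of Dhx36, the 3 largest rises in DHX36 KO against wild type with a window (Dhx32 exceeded Dhx15 in double KO) and Ddx46, which fell, are given 5′ to 3′ on the coding strand, with runs of at least 3 G or 3 C in capitals. None of these held a match in the 250 bases searched.
Dhx36, chr3:62506989-62507088, minus strand: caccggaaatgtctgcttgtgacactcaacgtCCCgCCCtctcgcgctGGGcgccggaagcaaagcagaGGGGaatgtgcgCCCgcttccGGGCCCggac
Dhx9, chr1:153487661-153487760, minus strand: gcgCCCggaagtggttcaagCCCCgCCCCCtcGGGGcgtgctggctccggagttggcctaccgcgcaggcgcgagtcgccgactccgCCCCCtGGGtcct
Dhx15, chr5:52190547-52190646, minus strand: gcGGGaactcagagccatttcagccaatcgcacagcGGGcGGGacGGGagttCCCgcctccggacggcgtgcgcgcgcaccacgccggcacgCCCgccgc
Ddx19b, chr8:111031752-111031851, minus strand: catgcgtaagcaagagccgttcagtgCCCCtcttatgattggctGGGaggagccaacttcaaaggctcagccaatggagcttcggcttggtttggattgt
Ddx46, chr13:55634899-55634998, plus strand: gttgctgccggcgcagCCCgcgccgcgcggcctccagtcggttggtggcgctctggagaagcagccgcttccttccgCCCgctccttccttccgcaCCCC
Dhx9 held 2 runs of G and 4 of C in this stretch and Dhx15 held 4 and 2, where Ddx19b, with the largest rise, held 1 and 1 before the first of its 2 windows. The 2 matches among the members that rose lay on the template strand, and are shown with 15 bases on each side and the match in capitals.
Ddx31, chr2:28840267-28840326, plus strand: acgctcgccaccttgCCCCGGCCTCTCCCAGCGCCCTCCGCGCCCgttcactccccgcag
Dhx32, chr7:133776908-133776961, minus strand: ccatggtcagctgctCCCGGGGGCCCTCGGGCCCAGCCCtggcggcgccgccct
A match is a description of the letters, not a measured structure.

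RNA helicases outside the name pattern and cofactors of these enzymes are given for comparison. Of 22 tested helicases of other families or names, 5 rose and 1 fell in DHX36 KO and 4 rose and 4 fell in double KO, with medians of 0.08 and 0.06; of all genes 12.8% rose and 11.6% fell in the first comparison and 16.6% and 17.3% in the second. Upf1, the helicase gene of nonsense-mediated decay, rose in DHX36 KO (0.35, SE 0.09) and not in double KO, at 58.9 ± 4.83 CPM against 63.1 ± 2.38 in wild type. The interferon-linked helicase gene Helz2 rose by 1.94 (SE 0.42) and 2.18 (SE 0.40), from 3, 4 and 4 counts in the wild-type libraries, and the RNA sensor gene Ifih1 changed by -3.02 (SE 0.99) and -2.59 (SE 0.86), from 10, 2 and 7 counts. Of the translation initiation helicase genes, Eif4a2 rose in double KO by 0.54 (SE 0.10) and Eif4a1 did not pass (-0.02, SE 0.08, adjusted p = 0.88). Eif4a3, a related gene of the exon junction complex, fell there by 0.44 (SE 0.13).

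The same shares of all genes apply to the next 3 lists, 12.8% up and 11.6% down in DHX36 KO and 16.6% up and 17.3% down in double KO. G-patch proteins switch on DEAH-box helicases, and of 21 such genes 0 rose and 2 fell in DHX36 KO, Pinx1 (-0.56, SE 0.15) and Cherp (-0.32, SE 0.09). In double KO 4 rose and 3 fell, with Gpatch1 at 0.57 (SE 0.14) and Sugp1, an activator of DHX15, at -0.47 (SE 0.13). Of 16 cofactors of DEAD-box proteins 2 rose and 1 fell in DHX36 KO, and 1 rose and 5 fell in double KO. The largest were Pdcd4, an inhibitor of eIF4A (0.57, SE 0.14, and 0.70, SE 0.13), Cwc22 (0.51, SE 0.10, in DHX36 KO) and the scaffold gene Eif4g3 (-1.04, SE 0.12, in double KO). Of 24 ribosome biogenesis factors that are no helicases, 2 rose and 2 fell in DHX36 KO and 2 and 3 in double KO, where Nop2 fell by 0.62 (SE 0.09) and Dkc1 rose by 0.43 (SE 0.09). No gene of these 4 lists passed in FANCJ KO.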

How the data were processed

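The deposited table holds raw whole-number counts per gene, not normalised by the authors. Per the labels' protocols the libraries followed a method like CEL-Seq2, which tags 3′ ends. The submitters' processing notes name BWA, GRCm38 and hg38; versions, roles, strand, molecule collapsing and multiple alignments were not given in the sources used here. The 92 spike-in rows were left out. All 12 libraries were fitted in 1 model with genotype as its only term (edgeR 4.0.16, R 4.3.3, trimmed-mean normalisation, default expression filter, quasi-likelihood F test, two-sided, Benjamini-Hochberg adjustment over 12765 genes, threshold 0.05), after a check on data with known answers. SE is the absolute log2 change over the square root of F. CPM use normalised totals. Coordinates are GENCODE M21 (GRCm38). Comparing counts of libraries of 1 genotype gave chi-square values of 3.87 to 11.3 for each degree of freedom, more than counting noise, so none were merged as 1 library deposited again; this does not show that they are biological replicates. Named genes were Dhx36, Brip1, its 4 relatives, up to 10 largest rises and falls per comparison among members, other members that passed, and up to 4 genes of each further list; 1 gene that this rule names is not reported here. Members, roles and lists were chosen with earlier results of these data known. Alternatives were other normalisation (RLE), DESeq2 1.42.0 without independent filtering, no filter, a mean of at least 5 CPM, the compared genotypes only, a replicate block, thinning to 4284785 counts, and leaving out each library.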

Additional observations from a re-analysis of the deposited data

Results flagged for a closer look

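In 4 helicase genes the effect of FANCJ loss differed by presence of DHX36, by the interaction in edgeR (all 12 libraries). The interaction was 0.63 for Dhx16, 0.44 for Dhx29, 0.445 for Dhx40 and -0.48 for Ddx21. The FANCJ effect with DHX36 and without it was 0.10 and 0.73 for Dhx16, -0.30 and 0.14 for Dhx29, -0.22 and 0.22 for Dhx40, and 0.05 and -0.43 for Ddx21. The calls of Dhx16 and Ddx21 held in every setting run, and those of Dhx29 and Dhx40 did not.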

How the results depend on the processing

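Numbers of members that rose or fell stayed within 1.5 times the reported ones under RLE size factors, the 5 CPM filter, the compared genotypes alone and a replicate block. The exceptions all concern the double against the DHX36 knockout, with 4 rises and 4 falls in the main fit. Rises numbered 2 with DESeq2 (7.15% of all genes) and 2 without an expression filter (5.53%). Falls numbered 2 at equal depth (9% of all genes). With a library left out, rises in the DHX36 knockout against wild type ran from 5 to 6, against 7 in the main fit. Of all genes, 9.52% to 10.6% rose in those runs. Rises in the double knockout ran from 5 to 9 against wild type, 1 to 2 against the DHX36 knockout (falls 2 to 5) and 7 to 12 against the FANCJ knockout. Interactions above 0 numbered 1 to 2. Shares of all genes for the double knockout and the interaction were, in the same order, 13.1% to 15%, 5.54% to 6.87% (falls 8.28% to 9.47%), 14.5% to 16%, and 1.92% to 2.52%. Of calls against wild type, 8 of 10 in the DHX36 knockout and 12 of 16 in the double knockout held in every setting that tested the gene, and 12 of 20 between double and FANCJ knockout (Ddx25, among the 12 of 16, was not tested at 5 CPM); no called change reversed. With a replicate block, 5 members rose in the DHX36 knockout and 8 in the double knockout (12.3% and 16.4% of all genes). The sources used here do not say what the replicate numbers mark. Same-numbered libraries did not deviate together (correlation of -0.056 to 0.046 over genes). A correlation over all genes would not show a shared batch that moves few of them. Among genes of at least 5 CPM, 8 of 43 members rose in the DHX36 knockout, against 14.8% of genes. Dhx58 and Ddx60 did not pass the expression filter of the main fit. Without an expression filter 49 members were tested, all but Dhx58os.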
